A study of Rattus norvegicus with 16 samples.

Results

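The mitochondrial ribosomal proteins are the proteins that build the ribosome inside mitochondria, and their transcripts were measured in rat soleus, a postural muscle made mostly of slow fibres. The members were all genes whose symbol begins with Mrpl or Mrps followed by a digit, taken from the array's annotation by symbol alone. There were 73 such genes of 14217 with 1 symbol, 46 named for the large subunit (Mrpl) and 27 for the small subunit (Mrps). They were covered by 97 probe sets, and each gene was represented by its probe set of highest mean over the 16 arrays. All 73 had a mean and a lowest value above 5.61 on the log2 scale, the 40th percentile of the probe set means, so no member was lost to a filter on low values.

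Arrays were made from 4 groups of 4 female rats, 1 array and 1 soleus per rat, all about 7 months old and from generation 16 of 2 lines selected on treadmill running. HCR trained rats were bred for high running capacity and ran uphill intervals on a treadmill on 5 days a week for 8 weeks, with tissue taken 48 hours after the last session. HCR sedentary rats were of the same line and age without training. LCR trained rats were bred for low running capacity and followed the same program, and LCR sedentary rats were their untrained counterparts. All 4 groups descend from N:NIH stock, and the trained rats alone also underwent weekly tests of maximal oxygen uptake, so training and testing cannot be told apart. The deposited values are log2 signals, and a difference of 1 is a doubling of signal.

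The mitochondrial ribosome translates the few messenger RNAs that mitochondrial DNA encodes, all of them for subunits of the respiratory chain and ATP synthase. Its proteins are encoded in the nucleus, made in the cytosol and imported, and they assemble on ribosomal RNAs transcribed inside the organelle. Many members descend from bacterial ribosomal proteins, and others were added in the line leading to animals. Endurance training is known for raising mitochondrial content in skeletal muscle, and a balance between this ribosome and nuclear-encoded subunits is needed to assemble the respiratory chain.

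Some arrays stood apart. On HCR trained 3, the mean of the 9 slow fibre markers lay at -2.40 and that of the 11 fast fibre markers at 2.26, as log2 deviations from their means over all arrays. The defining slow myosin Myh7 read 12.05 there, against 14.27 to 14.52 on the other 15 arrays, and the fast myosin Myh4 read 11.08, 8.43, 13.57 and 9.98 on the 4 HCR trained arrays, against 4.76 to 8.03 on the other 12. The fast fibre marker mean ran from 0.28 to 2.26 in HCR trained and from -0.68 to 0.31 in HCR sedentary rats. On HCR sedentary 2 the mean of the 13 fibroblast and matrix markers lay 1.92 above its mean, and on LCR trained 2 it lay 1.26 above. The beta-actin control index, the 3′ probe set minus the middle one, ran from 1.57 to 2.37 in HCR trained, 0.38 to 1.59 in HCR sedentary, 1.06 to 1.36 in LCR trained and 1.33 to 2.07 in LCR sedentary rats. The highest beta-actin index, 2.37, was that of HCR trained 2. A second control index, for Gapdh, read 1.67 on that array, against 0.48 to 0.77 on all others. HCR trained 2 held the highest value for 18 members and 12.4% of all genes, and HCR trained 3 for 17 and 18.5%. The part of these control values in the results was not tested. The members' counts and medians are also given without single arrays, and with the beta-actin index in the fit.

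The members' mean varied from array to array, within groups as well as between them. Averaged over the 73 genes as log2 deviation from each gene's mean over the 16 arrays, the HCR trained arrays stood at 0.04, 0.14, 0.08 and 0.15 and the HCR sedentary arrays at -0.04, -0.32, -0.13 and 0.09. The LCR trained arrays stood at 0.03, -0.13, -0.01 and -0.01 and the LCR sedentary arrays at -0.00, 0.18, 0.02 and -0.07. All 4 HCR trained arrays were above 0, and 1 HCR sedentary array, number 4, lay among them. The lowest array, HCR sedentary 2, held the lowest value of the 16 for 44 of 73 members, while it held the lowest value for 16.8% of all genes. On LCR sedentary 2 all 73 members lay above their own means, against 7 members on HCR sedentary 2.

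**Figure D1:**
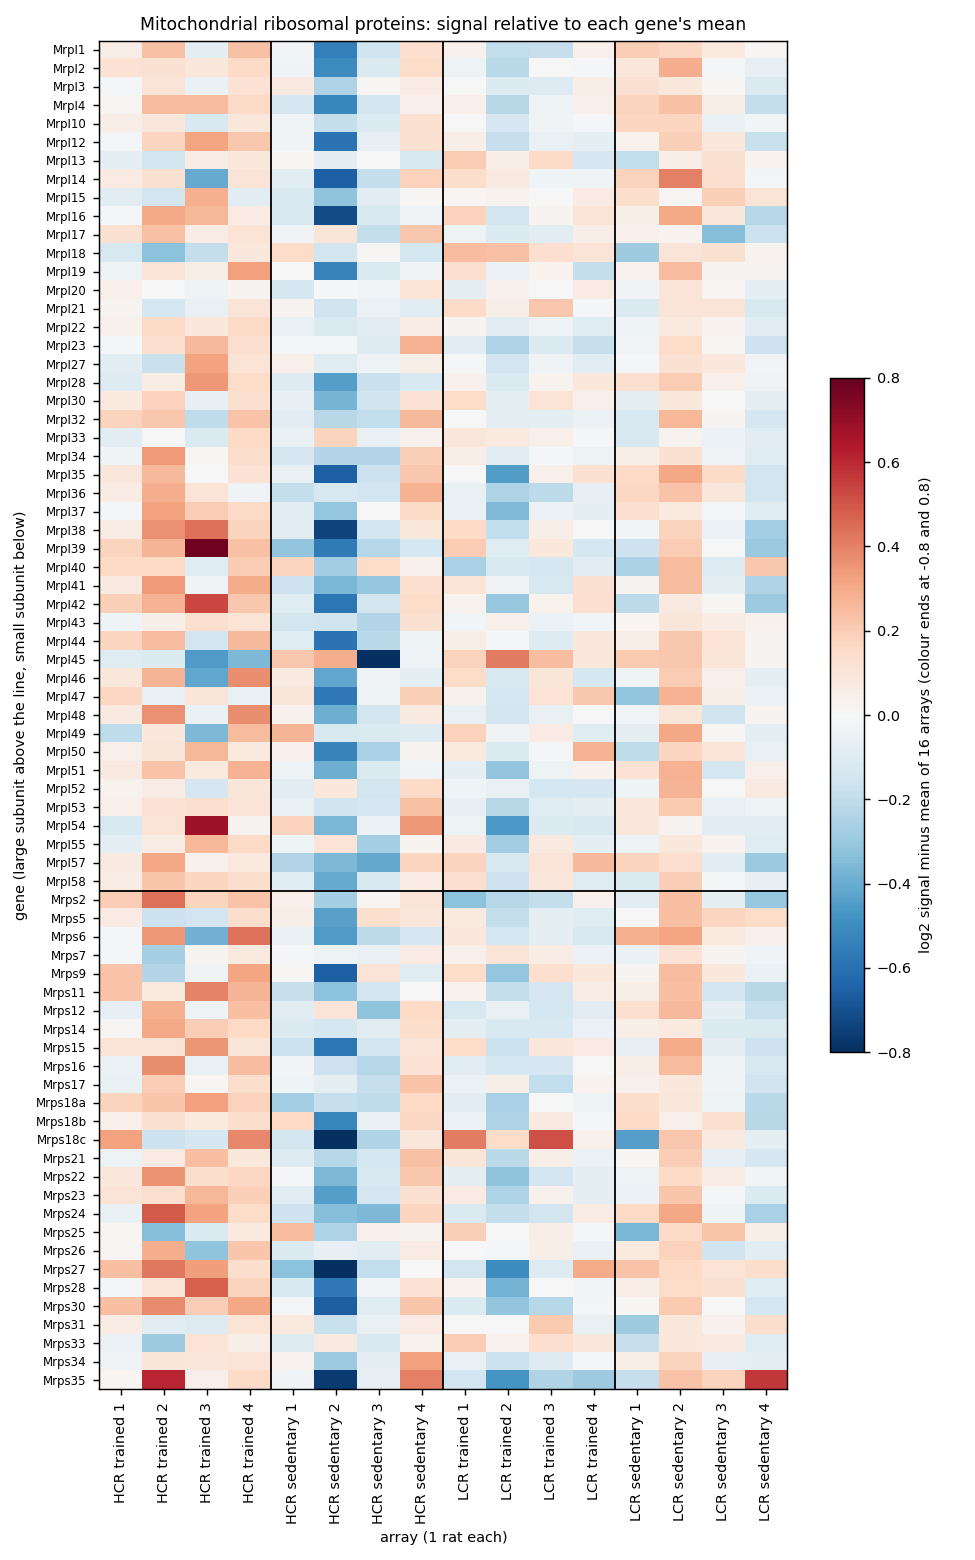
Log2 signal of each of the 73 genes (rows, Mrpl symbols above the line and Mrps symbols below) minus the gene's mean over 16 arrays (columns, grouped as HCR trained, HCR sedentary, LCR trained and LCR sedentary). The column of HCR sedentary 2 is blue for most rows, the column of LCR sedentary 2 is red for all 73, and colours end at -0.8 and 0.8.

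The 2 lowest arrays by member mean, HCR sedentary 2 and LCR trained 2, were the 2 with the highest matrix marker means, at 1.92 and 1.26, and the 2 with the lowest beta-actin index, at 0.38 and 1.06. The member mean of HCR sedentary 3 was nearly the same as that of LCR trained 2, at -0.1329 and -0.1336. On HCR sedentary 3 the matrix marker mean was 0.07 and the beta-actin index 1.32. The 13 matrix markers ranged, as mean deviation per array, from -0.70 to -0.38 in HCR trained, -0.37 to 1.92 in HCR sedentary, -0.31 to 1.26 in LCR trained and -0.65 to 0.17 in LCR sedentary rats. The part of other cells in the results was not tested, and in bulk muscle fewer cells of a type and less RNA per cell cannot be told apart.

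**Figure D2:**
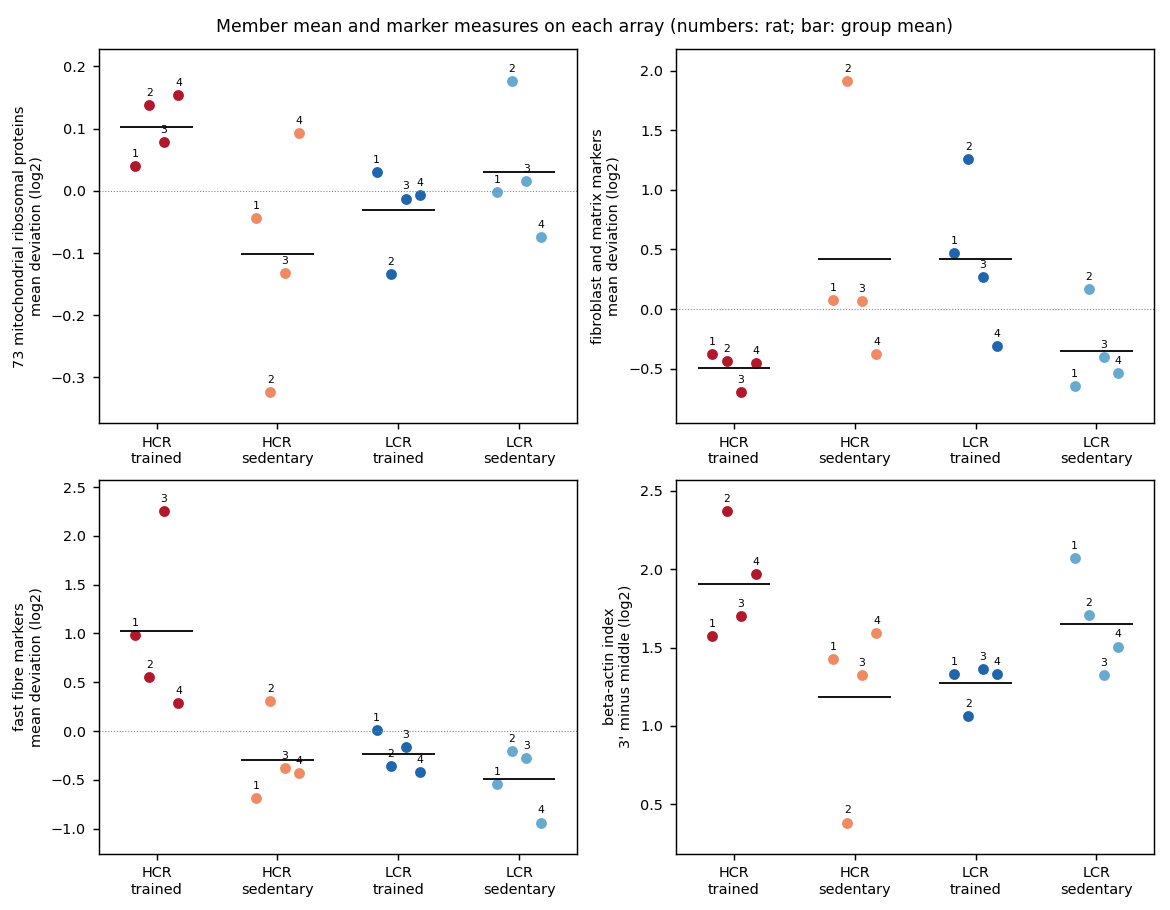
Mean log2 deviation of the 73 members, of 13 fibroblast and matrix markers and of 11 fast fibre markers, and the beta-actin index (log2), on each array. Points are rats with their numbers and bars are group means; HCR sedentary 2 is lowest for the members and the index and highest for the matrix markers.

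Training in the HCR line was set against sedentary HCR rats to ask how these transcripts respond to exercise in rats bred for high capacity. Of the 73 members, 66 had a positive difference and 7 a negative one, with a median of 0.20 log2 units, against a median of 0.02 and 55.2% positive over all 14217 genes. None passed an adjusted p of 0.05 (limma, Benjamini-Hochberg over 31042 probe sets), a threshold that 0.187% of all probe sets passed, and the smallest adjusted p among members was 0.0617. At an unadjusted p under 0.05, 33 members were higher in trained HCR rats and 0 were lower, while 13.3% of all genes were higher and 5.79% lower. The ranges of the 2 groups did not overlap, with trained rats higher, for 8 of 73 members, and this was so for 6.13% of all genes.

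The smallest p belonged to Mrpl39, a large-subunit protein with no bacterial ribosomal counterpart that resembles part of threonyl-tRNA synthetase. Mrpl39 read 7.75, 7.84, 8.35 and 7.80 in HCR trained rats, against 7.25, 7.00, 7.34 and 7.42 in HCR sedentary rats. The lowest trained value lay above the highest sedentary value, and HCR trained 3 was well above the other 3. The difference was 0.68 (SE 0.14, adjusted p = 0.0617), a 1.60-fold difference in signal. In the LCR line Mrpl39 read 7.77, 7.47, 7.65 and 7.43 in trained and 7.40, 7.77, 7.57 and 7.27 in sedentary rats, which overlapped, with a difference of 0.08 (SE 0.14, adjusted p = 0.881).

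Mrps11, the counterpart of bacterial protein S11 in the platform of the small subunit, read 8.78, 8.63, 8.95 and 8.83 in HCR trained rats and 8.37, 8.23, 8.40 and 8.56 in HCR sedentary rats. The ranges did not overlap, and the difference was 0.41 (SE 0.11, adjusted p = 0.0906). Mrps18a is 1 of 3 relatives of bacterial protein S18 and sits in the large subunit despite its name. It read 9.69, 9.73, 9.84 and 9.69 in HCR trained rats and 9.24, 9.33, 9.31 and 9.67 in HCR sedentary rats. The groups did not overlap, though HCR sedentary 4 lay just under the trained rats, and the difference was 0.35 (SE 0.10, adjusted p = 0.108).

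Mrps27, a pentatricopeptide repeat protein of the small subunit, read 8.44, 8.62, 8.53 and 8.34 in HCR trained rats and 7.87, 7.40, 8.00 and 8.20 in HCR sedentary rats, with no overlap and a difference of 0.61 (SE 0.16, adjusted p = 0.0956). Its 2 other, dimmer probe sets differed by -0.07 and 0.12, so the size seen on the brightest probe set was not shared. Of 18 members with other probe sets, the others had the same sign in 13, the opposite sign in 3 and mixed signs in 2, the exceptions being Mrpl10, Mrpl37, Mrpl52, Mrps26 and Mrps27. The probe set used and the others gave 0.08 and -0.26 for Mrpl10, 0.23, -0.21 and 0.00 for Mrpl37, 0.01 and -0.02 for Mrpl52, and 0.10 and -0.19 for Mrps26. Mrpl51, a large-subunit protein found only in mitochondria, had 4 probe sets, and their differences in HCR training were 0.31, 0.28, 0.07 and 0.26.

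The next 4 members by p were large-subunit proteins. Mrpl28, the counterpart of bacterial L28, averaged 9.40 ± 0.19 in HCR trained and 9.07 ± 0.16 in HCR sedentary rats (SD, n = 4 each), a difference of 0.32 (SE 0.10, adjusted p = 0.126). Mrpl42 averaged 11.03 ± 0.16 in trained and 10.56 ± 0.30 in sedentary rats and differed by 0.47 (SE 0.14, adjusted p = 0.127). Mrpl44, a protein with a ribonuclease III fold in which human mutations cause cardiomyopathy, averaged 8.89 ± 0.19 and 8.52 ± 0.25 in the same order and differed by 0.36 (SE 0.11, adjusted p = 0.138). Mrpl38, of the central protuberance, averaged 9.23 ± 0.17 in trained and 8.75 ± 0.36 in sedentary rats and differed by 0.48 (SE 0.15, adjusted p = 0.144). The sedentary SDs of Mrpl42 and Mrpl38 rested on HCR sedentary 2, the lowest array for both.

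Members at the working sites of the ribosome ranged from below 0 to values like those above. Mrpl12, of the stalk that binds translation factors, differed by 0.32 (SE 0.13, adjusted p = 0.224), and its neighbour Mrpl10 by 0.08 (SE 0.08, adjusted p = 0.635). Mrps12, the counterpart of the bacterial decoding protein S12, differed by 0.14 (SE 0.12, adjusted p = 0.569). The 5 measured proteins at the exit tunnel had a median of 0.11, and 1 of them, Mrpl22, had a p under 0.05 at 0.16 (adjusted p = 0.182). Mrpl45, which in mammals holds the ribosome to the inner membrane, had the lowest difference of the 73, at -0.14 (SE 0.20, adjusted p = 0.75). Of 5 central protuberance proteins, 4 were positive, and Mrpl18, related to the bacterial protein that binds 5S ribosomal RNA, was the exception at -0.11.

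Other members named for their role were spread over the range, among them Mrps22, Mrps16, Mrpl3 and Mrps7, in which human mutations cause mitochondrial disease. Mrps22 differed by 0.26 (adjusted p = 0.224), Mrps16 by 0.20 (adjusted p = 0.348), Mrpl3 by 0.06 (adjusted p = 0.726) and Mrps7 by -0.04 (adjusted p = 0.837) in HCR training. Mrps5 and Mrpl40 differed by 0.01 (adjusted p = 0.967) and 0.09 (adjusted p = 0.753), and the second, dimmer probe set of Mrpl40 by 0.68. Mrps30, which like Mrps18a sits in the large subunit, differed by 0.41 (adjusted p = 0.164). Among these 7 members, Mrps22 and Mrps30 had an unadjusted p under 0.05.

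**Figure D3:**
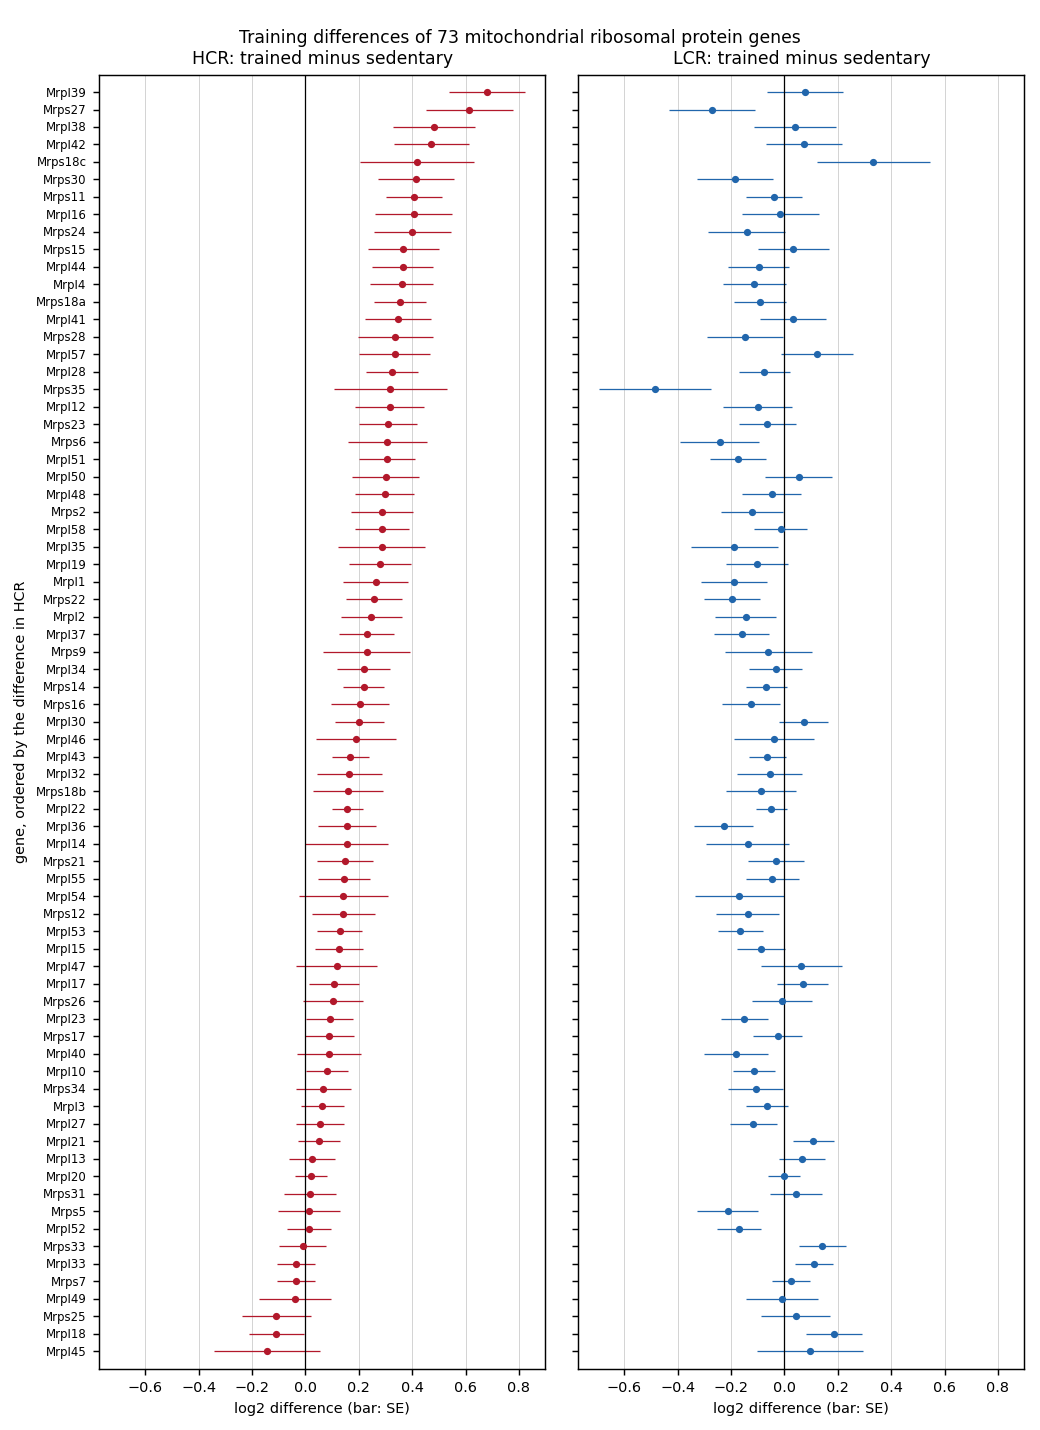
Log2 difference of trained minus sedentary rats for each of the 73 genes in the HCR line (left) and the LCR line (right), with standard errors as bars and genes ordered by the HCR difference. In HCR 66 points lie right of 0, and in LCR 20 do.

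By symbol, 22 of 46 Mrpl members had an unadjusted p under 0.05 with a median difference of 0.17, and 11 of 27 Mrps members with a median of 0.23. Mrps18a and Mrps30, which sit in the large subunit, were counted among the Mrps members. Of the 42 members listed as having a bacterial homologue, 15 had an unadjusted p under 0.05 and the median was 0.16, and of the 31 not so listed, 18 had and the median was 0.29. The list was incomplete, as Mrps24 and Mrps28, which have bacterial counterparts, were counted among the 31. The difference between these subgroups was not tested. The 5 structural proteins that carry other symbols were all positive, with a median of 0.22, and 0 of 5 had an unadjusted p under 0.05, among them Dap3 at 0.03 and Ptcd3 at 0.27.

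The matrix markers ran opposite to the members in HCR training, with 0 of 13 positive, 7 lower at an unadjusted p under 0.05 and a median of -0.89. The fast fibre markers moved with the group, with 8 of 11 positive and 4 higher, and the part of either list in the result was not tested. Without HCR sedentary 2 the count of 33 became 17 and the median 0.13, and without both HCR sedentary 2 and HCR trained 3 they were 12 and 0.14, with 61 of 73 members positive. The shares of all genes higher in those fits were 10.5% and 14.2%, the second of them near the members' share. With the beta-actin index added to the fit the count was 2, against 4.87% of all genes, the median 0.03 and 50 of 73 were positive, while Mrpl39 still differed by 0.58 (adjusted p = 0.545). Without HCR sedentary 4, Mrps18a, Mrpl39, Mrps27 and Mrpl43 passed the adjusted threshold, as did 1.46% of all probe sets. Without LCR sedentary 2, Mrpl39 was the only member to pass it, as did 0.454% of all probe sets.

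The promoters of the 4 members with the smallest p in HCR training are shown so that their motif content can be read beside their values, and they differ in it. Each line gives the 250 bases before the RefSeq start of the gene on assembly GRCr8, read 5′ to 3′ on the gene's strand, and capitals mark matches to the GABP or YY1 motif. The windows lie at chr11:37281545-37281794 (minus strand) for Mrpl39, chr1:142117014-142117263 (plus strand) for Mrps11, chr9:22367381-22367630 (minus strand) for Mrps18a and chr2:32473954-32474203 (plus strand) for Mrps27.
Mrpl39: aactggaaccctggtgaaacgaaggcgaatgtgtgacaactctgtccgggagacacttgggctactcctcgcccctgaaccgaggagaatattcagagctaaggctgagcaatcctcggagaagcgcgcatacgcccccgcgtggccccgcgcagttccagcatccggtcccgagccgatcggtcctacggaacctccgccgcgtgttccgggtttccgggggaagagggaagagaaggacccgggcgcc
Mrps11: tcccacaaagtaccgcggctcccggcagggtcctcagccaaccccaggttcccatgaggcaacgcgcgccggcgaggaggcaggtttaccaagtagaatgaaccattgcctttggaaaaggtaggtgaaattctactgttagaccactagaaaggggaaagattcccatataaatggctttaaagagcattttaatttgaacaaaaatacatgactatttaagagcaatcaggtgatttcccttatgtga
Mrps18a: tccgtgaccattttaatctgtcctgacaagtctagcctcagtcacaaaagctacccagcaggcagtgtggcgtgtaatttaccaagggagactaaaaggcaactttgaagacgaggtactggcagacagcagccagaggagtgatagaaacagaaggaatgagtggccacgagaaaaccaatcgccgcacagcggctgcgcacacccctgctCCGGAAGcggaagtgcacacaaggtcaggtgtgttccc
Mrps27: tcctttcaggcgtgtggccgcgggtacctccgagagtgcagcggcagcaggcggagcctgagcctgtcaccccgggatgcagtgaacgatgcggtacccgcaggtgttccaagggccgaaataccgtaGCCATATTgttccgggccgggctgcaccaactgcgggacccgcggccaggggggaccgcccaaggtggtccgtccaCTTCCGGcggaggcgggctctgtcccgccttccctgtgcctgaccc

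In Mrps27 the window held a YY1 match that begins at position -122 from the gene start and a GABP match, on the opposite strand, at position -46. In Mrps18a a GABP match began at position -38, and in Mrpl39 and Mrps11 neither motif was found in the window. RefSeq promoters were listed for 59 of the 73 members, and both strands of the 250 bases before and 50 after the start were searched. Past the printed window, YY1 matches on the opposite strand began at position 0 in Mrps18a and at position 29 in Mrps27. GCCATNTT, bound by YY1, was present in 35.6% of member promoters, in 8.85% of 11701 promoters of genes on the array and in 7.36% of all 27457. CCGGAAG, the core bound by GABP and other ETS factors, was present in 33.9% of member promoters, 15.1% of array genes' and 9.22% of all. GCGCA and GCGC with any 1 base between them, bound by NRF1, were in 15.3%, 8.49% and 4.71% in the same order. AAGGTCA, bound by estrogen-related receptors, was in 5.08%, 3.15% and 4.37%, and Mrps18a holds it near the end of its line, in lower case. These shares describe letters in the windows, and no binding was measured. Median GC content was 56% in member promoters and 60% in those of array genes.

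A divergent neighbour, a gene on the other strand whose start lay within 500 bases, was found for 15 of 59 members (25.4%) and for 11.7% of array genes. Mrpl46, of the central protuberance, and Mrps11 were each other's neighbours, with 234 bases between their starts. In HCR training Mrps11 differed by 0.41 and Mrpl46 by 0.19 (adjusted p = 0.54), with Mrpl46 at 8.63, 8.81, 8.12 and 8.91 in trained and 8.61, 8.12, 8.50 and 8.46 in sedentary rats, which overlapped.

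Training in the LCR line, set against sedentary LCR rats, gave negative differences for most members. Of 73, 20 were positive and 53 negative, with a median of -0.06, against -0.03 and 41.3% positive over all genes. Of 18 members with other probe sets, the others had the same sign in 8, the opposite sign in 8 and mixed signs in 2, so the sign often depended on the probe set. No member passed the adjusted threshold, which 0.00322% of probe sets did. At an unadjusted p under 0.05, 0 members were higher and 1 was lower in trained LCR rats, while 3.7% of all genes were higher and 7% lower. That member was Mrps35, a small-subunit protein, with 8.83, 8.51, 8.73 and 8.69 in LCR trained rats and 8.80, 9.20, 9.15 and 9.54 in LCR sedentary rats. The ranges overlapped, LCR sedentary 4 was the highest array, and the difference was -0.49 (SE 0.21, adjusted p = 0.484). Ranges did not overlap, with trained rats lower, for 3 of 73 members, Mrpl52, Mrpl53 and Mrps22, and for 6.82% of all genes.

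The other 7 members of smallest p in LCR training differed by less. Mrpl36, the counterpart of bacterial L36, differed by -0.23 (adjusted p = 0.518), Mrpl52 by -0.17 (adjusted p = 0.524) and Mrpl53 by -0.17 (adjusted p = 0.547). Mrps22 differed by -0.20 (adjusted p = 0.56), Mrps5 by -0.21 (adjusted p = 0.571) and Mrpl23, an exit tunnel protein, by -0.15 (adjusted p = 0.594). Mrpl18 was the 1 positive difference among the 8, at 0.19 (adjusted p = 0.583). Matrix markers ran the other way in this comparison, with 13 of 13 positive and a median of 0.70, and their part in the result was not tested. Without LCR sedentary 2 the members' median was -0.02, without LCR trained 2 it was -0.04 and without LCR sedentary 4 it was -0.10. With the beta-actin index added to the fit the direction turned, with 43 of 73 positive and a median of 0.02.

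The interaction asks whether training differed between the lines. Its value is the HCR training difference minus the LCR one, and it was positive for 63 of 73 members and negative for 10, with a median of 0.28, against 0.06 and 60.4% positive over all genes. No member and 0% of probe sets passed the adjusted threshold, and the smallest adjusted p among members was 0.116. At an unadjusted p under 0.05, 29 members had a positive interaction and 0 a negative one, against 13.1% and 5.96% of all genes. Mrps27 had the smallest p, with an interaction of 0.89 (SE 0.23, adjusted p = 0.116), and in LCR rats it read 8.06, 7.70, 8.10 and 8.50 when trained and 8.43, 8.36, 8.31 and 8.34 when sedentary. Its 2 other probe sets gave interactions of -0.20 and 0.12. The sedentary LCR values lay within a narrow band, at 8.31 to 8.43, and the trained ones spread from below to above it.

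The next 3 by p were Mrpl51 at 0.48 (SE 0.15, adjusted p = 0.139), Mrps18a at 0.45 (SE 0.14, adjusted p = 0.14) and Mrps22 at 0.45 (SE 0.15, adjusted p = 0.152). Mrps11, Mrpl39, Mrps30 and Mrpl28 followed, with interactions of 0.45, 0.60, 0.60 and 0.40. Without LCR sedentary 2 the 29 became 17, without HCR sedentary 2 it was 19, and without both HCR sedentary 2 and HCR trained 3 it was 18. With the beta-actin index added to the fit it was 0, and the median was 0.02. The shares of all genes in these fits, in the same order, were 10.7%, 10.7%, 14.7% and 2.81%. For the matrix markers the interaction was negative in 13 of 13, with a median of -1.55.

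In trained rats, the HCR line was set against the LCR line. Of 73 members, 59 had a positive difference and 14 a negative one, with a median of 0.15, against 0.05 and 64.3% positive over all genes. No member passed the adjusted threshold, which 0.374% of probe sets did, and the smallest adjusted p was 0.0771. At an unadjusted p under 0.05, 19 members were higher in trained HCR rats and 2 were lower, while 12.9% of all genes were higher and 5.13% lower. The ranges did not overlap, with HCR higher, for 17 of 73 members, and this was so for 8.9% of all genes. This comparison shares the HCR trained arrays with HCR training and the LCR trained arrays with LCR training, so their values are not independent.

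Mrps2, the counterpart of bacterial S2, had the smallest p. It read 8.50, 8.74, 8.48 and 8.54 in HCR trained rats and 7.98, 8.08, 8.11 and 8.34 in LCR trained rats, with no overlap and a difference of 0.44 (SE 0.11, adjusted p = 0.0771). Its other, dimmer probe sets differed by 0.15 and 0.004, so the size seen on the brightest one was not shared. Of 18 members with other probe sets, the others had the same sign in 13, the opposite sign in 4 and mixed signs in 1. Mrps30 read 9.90, 10.04, 9.86 and 9.97 in HCR trained and 9.56, 9.35, 9.43 and 9.65 in LCR trained rats, also with no overlap, and differed by 0.45 (SE 0.14, adjusted p = 0.117). Mrps22, in which human mutations cause cardiomyopathy, read 9.22, 9.50, 9.27 and 9.30 in HCR trained and 9.06, 8.81, 8.98 and 9.06 in LCR trained rats and differed by 0.34 (SE 0.11, adjusted p = 0.107). In all 3 genes the lowest HCR array lay above the highest LCR array.

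Mrps14, the counterpart of bacterial S14, differed by 0.26 (SE 0.08, adjusted p = 0.0983), Mrps18a by 0.33 (SE 0.10, adjusted p = 0.102), Mrpl23 by 0.28 (SE 0.09, adjusted p = 0.108) and Mrpl37 by 0.30 (SE 0.10, adjusted p = 0.133). The other probe sets of Mrpl37 differed by -0.27 and 0.10. The 2 members lower in HCR were Mrpl18 and Mrpl45, and neither pair of ranges overlapped. Mrpl18 read 9.77, 9.57, 9.71 and 9.98 in HCR trained and 10.14, 10.13, 10.03 and 10.00 in LCR trained rats and differed by -0.32 (SE 0.10, adjusted p = 0.119). Mrpl45 read 9.77, 9.76, 9.41 and 9.51 in HCR trained and 10.05, 10.29, 10.12 and 9.95 in LCR trained rats and differed by -0.49 (SE 0.20, adjusted p = 0.192). In sedentary rats the line difference of Mrpl45 was -0.25 (adjusted p = 0.728), with HCR sedentary 3 far below the other HCR arrays at 8.95.

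**Figure D4:**
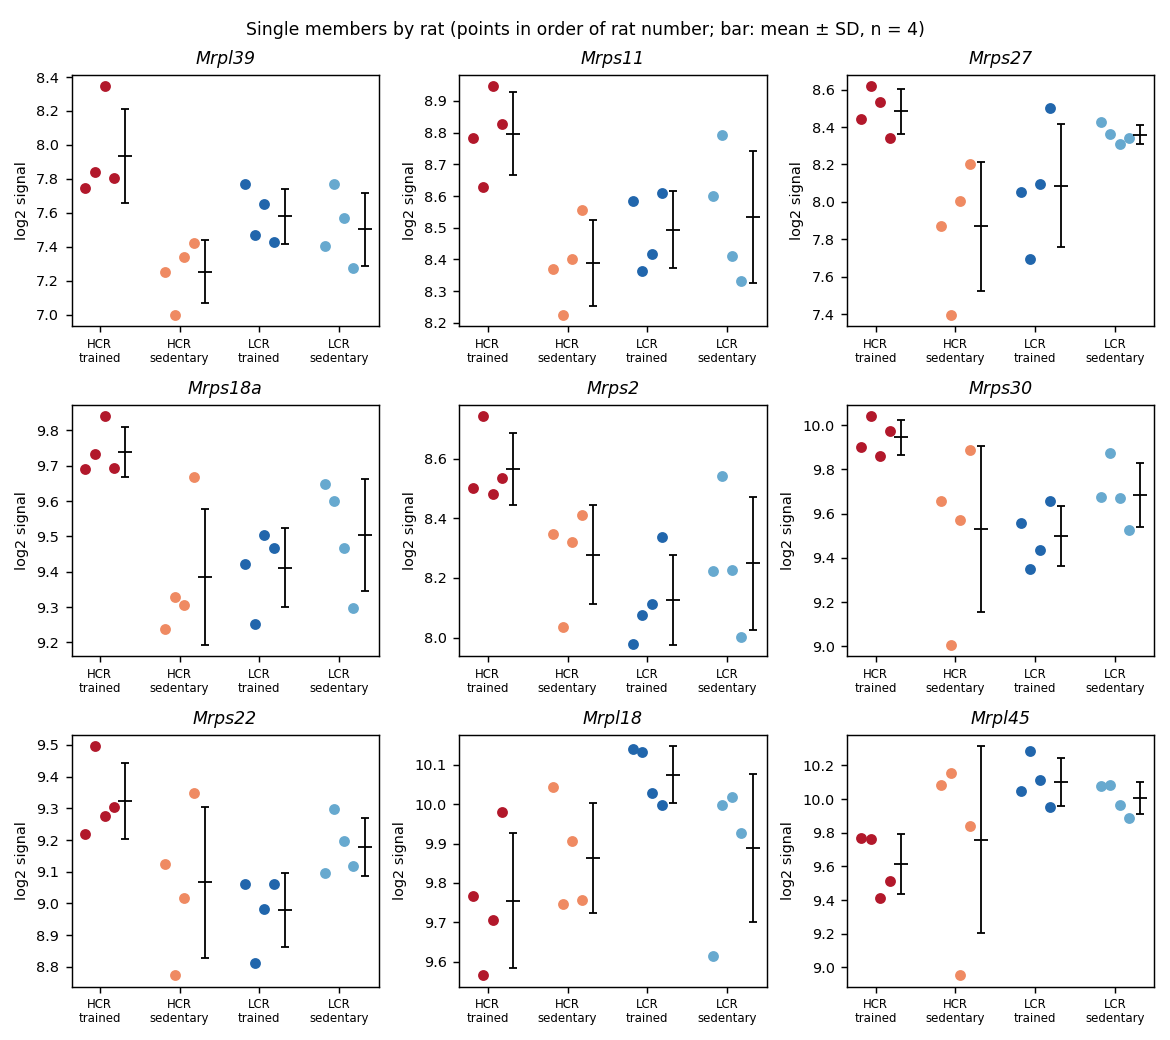
Log2 signal of 9 genes in HCR trained, HCR sedentary, LCR trained and LCR sedentary rats. Points are rats in order of number and bars are the mean ± SD (n = 4); Mrpl39, Mrps11, Mrps27, Mrps18a and Mrps2 separate HCR trained from HCR sedentary rats, and Mrpl18 and Mrpl45 are lower in HCR trained than in LCR trained rats.

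Leaving out HCR sedentary 2, which lies outside this comparison but enters the pooled spread, put Mrps2 (adjusted p = 0.049) and Mrps30 (adjusted p = 0.0349) past the threshold, which 2.1% of all probe sets then passed, a share near the members' own. Leaving out LCR trained 2 took the count of 19 to 9, against 8.83% of all genes. With the beta-actin index added to the fit the count was 1, against 5.65% of all genes. The median was then -0.02 and 33 of 73 members were positive, so the direction of the median turned. Of the matrix markers 0 of 13 were positive and the median was -0.79, and their part in the result was not tested.

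In sedentary rats, the HCR line was set against the LCR line. Of 73 members, 7 were positive and 66 negative, with a median of -0.12, against -0.003 and 49% positive over all genes. No member passed the adjusted threshold, which 0.00966% of probe sets did. At an unadjusted p under 0.05, 0 members were higher and 9 were lower in sedentary HCR rats, while 3.91% of all genes were higher and 5.99% lower. Mrpl28 read 9.18, 8.84, 9.10 and 9.16 in HCR sedentary rats and 9.41, 9.48, 9.33 and 9.25 in LCR sedentary rats, with no overlap and a difference of -0.30 (SE 0.10, adjusted p = 0.538). Mrps27 and Mrpl44 did not overlap either and differed by -0.49 (SE 0.16, adjusted p = 0.538) and -0.34 (SE 0.11, adjusted p = 0.549). With Mrpl19 and Mrps6, 5 of 73 members did not overlap with HCR lower, and this was so for 3.28% of all genes.

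The remaining 5 of the 8 with the smallest p were Mrpl15 at -0.25 (adjusted p = 0.565), Mrps6 at -0.39 (adjusted p = 0.569), Mrpl14 at -0.36 (adjusted p = 0.59), Mrpl43 at -0.16 (adjusted p = 0.591) and Mrpl4 at -0.26 (adjusted p = 0.597). These 5 include Mrpl15, Mrps6, Mrpl14 and Mrpl4, counterparts of bacterial proteins, and Mrpl43, found in mitochondria alone. Without HCR sedentary 2 the 9 became 3, against 3.21% of all genes, and the median -0.04, and without LCR sedentary 2 they were 4 and -0.08. Without HCR sedentary 4 they were 25 and -0.18, and with the beta-actin index added to the fit 0 and -0.02. Of all genes 3.62% were lower without LCR sedentary 2, 8.73% without HCR sedentary 4 and 2.23% with the index. Of the matrix markers 13 of 13 were positive here, with a median of 0.84.

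Averaged over both lines, training gave 57 positive and 16 negative members with a median of 0.05, against -0.005 over all genes. No member passed the adjusted threshold, which 0.00644% of probe sets did, and 7 were higher and 0 lower at an unadjusted p under 0.05, against 6.82% and 4.21% of all genes. Averaged over both training states, the lines gave 39 positive and 34 negative members with a median of 0.01, against 0.03 over all genes. No member passed, while 0.087% of probe sets did, and 4 were higher and 3 lower in HCR at an unadjusted p under 0.05, against 5.93% and 3.68% of all genes. The 4 were Mrps2, Mrpl23, Mrpl17 and Mrps14 and the 3 were Mrpl45, Mrpl18 and Mrpl15.

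The rest of the mitochondrial translation pathway was described from 4 lists, whose counts stand against 13.3% of all genes higher and 5.79% lower in HCR training, and 3.7% and 7% in LCR training. Of 24 measured proteins that assemble the ribosome or modify its RNA, 20 were positive in HCR training, 10 were higher and 0 lower at an unadjusted p under 0.05, and the median was 0.19. Noa1, a GTPase needed for the small subunit, differed by 0.46 (SE 0.10, adjusted p = 0.0656). Mterf3, needed for the large subunit, differed by 0.36 (SE 0.12, adjusted p = 0.15), and Malsu1, which keeps the subunits from joining early, by 0.33 (SE 0.11, adjusted p = 0.157). In LCR training 3 of the 24 were positive, 0 were higher and 3 lower, and the median was -0.09.

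Of 16 measured mitochondrial aminoacyl-tRNA synthetases and related amidotransferase subunits, 12 were positive in HCR training and 6 were higher and 0 lower at an unadjusted p under 0.05, with a median of 0.22. Yars2, which charges tyrosine, differed by 0.81 (SE 0.24, adjusted p = 0.125), and Fars2, which charges phenylalanine, by 0.43 (SE 0.13, adjusted p = 0.136). Of 14 translation factors 10 were positive, and 5 were higher and 1 lower, with a median of 0.17. The release factor Mtrf1l differed by 0.45 (SE 0.14, adjusted p = 0.134) and the elongation factor Tufm by 0.23 (SE 0.10, adjusted p = 0.258), while Gfm2, which recycles ribosomes, was the lower one at -0.24 (SE 0.10, adjusted p = 0.209).

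Of 23 genes of mitochondrial transcription and RNA processing, 20 were positive in HCR training, 6 were higher and 0 lower, and the median was 0.18. Tfb2m, a transcription initiation factor, differed by 0.41 (SE 0.15, adjusted p = 0.195) and the polymerase Polrmt by 0.29 (SE 0.12, adjusted p = 0.226). Lrpprc and Slirp, partners that stabilise mitochondrial messenger RNAs, differed by 0.38 and 0.29. Of the regulators on this list, named for their role whatever their p, Ppargc1a differed by 0.20 (adjusted p = 0.647), Ppargc1b by -0.41 (adjusted p = 0.477), Gabpa by 0.15 (adjusted p = 0.58), Nrf1 by -0.13 (adjusted p = 0.393), Gabpb1 by 0.19 (adjusted p = 0.403) and Esrra by 0.18 (adjusted p = 0.567). None of the genes on the 4 lists passed the adjusted threshold in HCR training.

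The list counts were smaller without HCR sedentary 2, in fits added after seeing the data. Then 5 of 24 assembly genes were higher in HCR training, 2 of 16 synthetases, 1 of 14 translation factors and 0 of 23 transcription and RNA processing genes, against 10.5% of all genes. Their medians were then 0.14, 0.11, 0.09 and 0.09. When the beta-actin index was included, the counts were 3, 0, 0 and 0, against 4.87% of all genes. The medians were then 0.02, -0.01, 0.01 and 0.02, so the direction turned for the synthetases.

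The cytosolic ribosomal proteins differed from the mitochondrial ones in direction. Of 42 measured, 0 were positive in HCR training and 28 were lower at an unadjusted p under 0.05, against 5.79% of all genes, with a median of -0.22, and their mean deviation ran from -0.16 to -0.08 on the HCR trained arrays and from 0.02 to 0.34 on the HCR sedentary arrays. The 77 measured genes of the respiratory chain and ATP synthase had a median of 0.18 with 71 positive and 28 higher, against 13.3% of all genes. Without HCR sedentary 2 the cytosolic proteins had 16 lower and a median of -0.16, and the respiratory genes 6 higher and 0.07. Including the beta-actin index, they had 2 lower and -0.09, and 1 higher and -0.02, so the direction turned for the respiratory genes. Of all genes, 4.01% were lower and 10.5% higher without HCR sedentary 2, and 3.05% lower and 4.87% higher with the index. In trained rats, line against line, the respiratory median was 0.04 with 1 gene higher at an unadjusted p under 0.05, beside 0.15 and 19 genes for the members and 12.9% of all genes. These differences between lists were not tested.

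**Figure D5:**
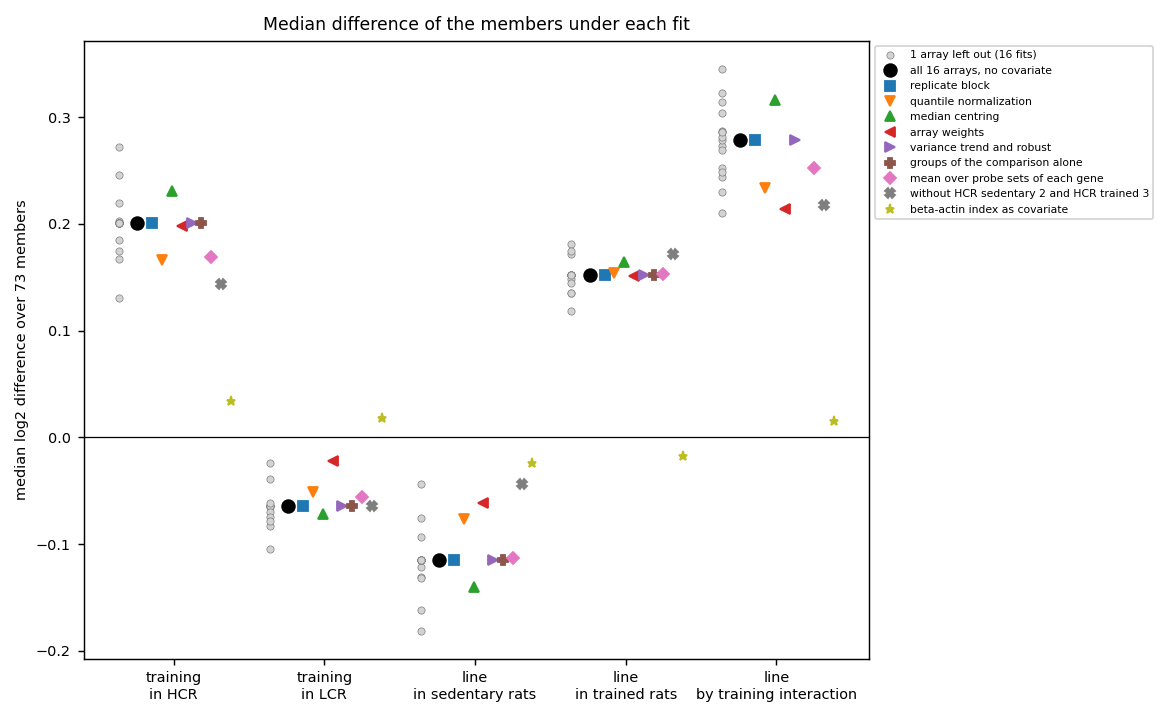
Median log2 difference over the 73 genes in 5 comparisons under each fit; grey points leave out 1 array each, the black point uses all 16 arrays without covariate, and coloured marks are the other fits. In HCR training the medians lie between 0.13 and 0.27 with 1 array left out, and the fit that includes the beta-actin index gives 0.03.

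The median within-group SD was 0.17 for members and 0.15 for all genes, running from 0.07 for Mrpl22 to 0.33 for Mrps18c. Mrps18c, another relative of bacterial S18, read 8.24, 7.75, 7.79 and 8.30 in HCR trained and 7.77, 6.95, 7.68 and 8.01 in HCR sedentary rats and differed by 0.42 (SE 0.21, adjusted p = 0.322). Its sedentary values spread by over 1 log2 unit. The probe sets of highest mean were those of Mrpl17, Mrpl54 and Mrpl15 and those of lowest mean were those of Mrpl39, Mrps31 and Mrps18c, but signals of different probe sets are not comparable as amounts of RNA. The 73 genes lie on 18 chromosomes in RefSeq, with 12 each on chromosomes 1 and 10.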

How the data were processed

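Total RNA from soleus was hybridised to Affymetrix rat arrays, 1 per rat. The authors deposited log2 values per probe set, and the submitters' processing notes list RMA and limma without versions. Whether all arrays were summarised together is not given in these sources; array medians ran from 5.90 to 5.98. Precision is limited by having 4 arrays in a group.

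Of 31099 probe sets, 57 controls were left out and 31042 fitted (limma 3.58.1, R 4.3.3) as 4 group means, leaving 12 residual degrees of freedom, with Benjamini-Hochberg adjustment within each of 7 comparisons. The fit was tested on simulated data. One probe set per gene, that of highest mean, was used for 14217 genes with 1 symbol. The gene family and the lists were chosen with earlier results of these data known. Named are the 8 members of smallest p in each of 5 comparisons, key members by role, the 3 with the highest and 3 with the lowest mean signal, those whose probe sets disagree in HCR training and list genes. The rats are separate animals, and p-values rest on the spread between them. Symbols matched RefSeq GRCr8 by gene identifier for 73 of 73 members. Alternatives changed the normalization, weights, covariates, probe sets and arrays used.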

Additional observations from a re-analysis of the deposited data

Results flagged for a closer look

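Single arrays lay apart from the other 3 of their group in 8 of 148 group checks, where chance gives about 1 in 20. The mean deviation of the Mrps members was -0.1688 on LCR trained 2, against -0.02 to 0.00 on the other LCR trained arrays. On HCR trained 3, Mrpl39 read 8.347 and Mrpl15 11.58, above the 7.75 to 7.84 and 11.15 to 11.21 of the other HCR trained arrays. Mrpl14 read 8.763 and Mrpl40 9.632 there, below the 9.23 to 9.28 and 9.88 to 9.93 of the others. Mrpl36 read 9.835 on HCR sedentary 4, above the 9.37 to 9.43 of its group, and Mrps5 read 8.505 on HCR sedentary 2, below the 8.98 to 9.07 of its group. Mrpl37 read 9.945 on LCR trained 2, against 10.22 to 10.25 on the others.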

How the results depend on the processing

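Among the alternative values for the 8 members of smallest p in each of 5 comparisons (40 results), 1013 stayed on the same side of the threshold with the same sign, 19 passed the threshold anew and 0 turned sign. None of the 40 had passed it in the main fit, so the same side meant staying short of it, whatever the change in size. The Mrps30 interaction, for example, counted as staying at 0.60 in the main fit and 0.09 with the beta-actin index. Counts below are of the 73 members at an unadjusted p under 0.05 unless said otherwise. With the beta-actin index added to the fit, HCR training had 2 higher and a median of 0.03395, LCR training 2 higher, 0 lower and a median that turned to 0.02, sedentary lines 0 lower, trained lines 1 higher, 1 lower and a median of -0.01776, the interaction 0 higher and a median of 0.0155, training over both lines 4 higher, and lines over both states a median that turned to -0.01. Of all genes, 4.87% were higher in HCR training, and 3.02% higher and 4.09% lower in LCR training. Sedentary lines had 2.23% of all genes lower, and trained lines 5.65% higher and 3.06% lower. The interaction had 2.81% higher and training over both lines 6.49% higher. Without HCR sedentary 2 and HCR trained 3, HCR training had 12 higher, LCR training 6 lower, sedentary lines 5 lower, trained lines 3 past the adjusted threshold (4.24% of all probe sets passed), the interaction 18 higher, training over both lines 1 lower and lines over both states 8 higher. Shares of all genes were 14.2% higher in HCR training, 11.2% lower in LCR training, 4.89% lower in sedentary lines and 14.7% higher in the interaction. They were 6.56% lower for training over both lines and 8.24% higher for lines over both states. With the groups of the comparison alone, HCR training had 21 higher, LCR training 6 lower, sedentary lines 5 lower and trained lines 2 past the adjusted threshold (2.69% of all). In these fits 9.68% of all genes were higher in HCR training, 10.4% lower in LCR training and 5.63% lower in sedentary lines. With array weights, 4 members passed the adjusted threshold in HCR training and 8 in trained lines, against 4.2% and 11.4% of all probe sets. For training over both lines and lines over both states 2 and 1 passed, against 3.7% and 1.09%. With these weights LCR training had 2 higher and 6 lower, against 9.587% and 11.51% of all genes. Training over both lines had 16 higher and lines over both states 7 higher, against 15.99% and 11.09% of all genes. Quantile normalization gave 1 higher and 2 lower in LCR training and 1 lower in the interaction, against 3.83%, 7.46% and 6.4% of all genes. Median centring gave 1 past the adjusted threshold in HCR training, against 0.821% of all probe sets, and 2 lower in LCR training, against 7.86% of all genes. The mean over probe sets gave 2 higher for lines over both states, against 5.388% of all genes. The causes were not tested.

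With 1 array left out, HCR training had 0 to 4 past the adjusted threshold, 17 to 41 higher, 0 to 1 lower and a median of 0.1303 to 0.2715. LCR training had 0 to 0 past it, 0 to 0 higher, 0 to 5 lower and -0.1049 to -0.02374. Sedentary lines had 0 past it, 0 to 1 higher, 3 to 25 lower and -0.1811 to -0.04357. Trained lines had 0 to 2 past it, 9 to 26 higher, 1 to 2 lower and 0.1185 to 0.1814. The interaction had 0 past it, 17 to 40 higher, 0 to 2 lower and 0.2101 to 0.3451. Training over both lines had 0 past it, 3 to 16 higher, 0 to 1 lower and 0.02763 to 0.08523, and lines over both states 0 past it, 2 to 9 higher, 1 to 3 lower and -0.01944 to 0.03351. Over these fits the share of all genes higher ran from 10.5% to 16.5% in HCR training and from 8.83% to 14.7% in trained lines. It ran from 10.4% to 16.6% in the interaction, 5.04% to 9.68% for training over both lines and 4.35% to 7.8% for lines over both states. The share lower ran from 4.39% to 9.07% in LCR training and from 3.21% to 8.73% in sedentary lines. It ran from 4.01% to 6.84% in HCR training, 3.81% to 6.87% in trained lines and 4.01% to 6.74% in the interaction. For training over both lines it ran from 3.3% to 5.54%, and for lines over both states from 2.69% to 4.4%. The share of all probe sets past the adjusted threshold ran from 0.00322% to 1.46% in HCR training and from 0.029% to 2.1% in trained lines.

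Replicate numbers are shared by the groups, and the sample titles do not say whether they pair the rats. Same-number correlations ran from -0.48 to 0.57 (median 0.03, 24 pairs), and 7 of 16 arrays correlated best with their own number. These values do not settle whether the rats were paired, and the main fit used no pairing. With the replicate block, 29 members were higher in HCR training, 2 lower in LCR training, 17 higher in trained lines and 26 higher in the interaction. The shares of all genes in the same order were 13%, 6.39%, 12.1% and 12.6%. No member passed the adjusted threshold, as in the main fit. Of all probe sets, 0.00644% passed it in HCR training and 0.0805% in trained lines, against 0.187% and 0.374% in the main fit.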
